A study of Mus musculus with 19 samples.

Results

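CJ7 embryonic stem cells after 4 days without LIF were compared with CJ9 embryonic stem cells after the same 4 days, as 3 libraries of each line among the 19 RNA-seq libraries of the series. The members are the 6 day-4 libraries whose labels name the line CJ7 or CJ9, whatever hairpin they carried. The 3 CJ7 libraries came from an experiment on the lncRNA Evx1as and comprise 1 with a control hairpin (shCtrl) and 2 with hairpins against Evx1as (shEvx1as 1 and 2). The 3 CJ9 libraries came from an experiment on the coding gene EVX1 and comprise 1 with a control hairpin and 2 with hairpins against EVX1 (shEVX1 1 and 2). The labels give the strain 129S4/SvJae for both lines and the same serum-containing medium without LIF, the cytokine that holds mouse embryonic stem cells in an undifferentiated state. Line, experiment and target of the hairpin change together between the groups and cannot be told apart.

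The series asked which genes change when a divergent lncRNA is depleted during differentiation, and its labels name no comparison of the lines. The other 13 libraries comprise 6 from CJ9 at days 5 and 6 of LIF withdrawal and 7 from 46c cells in N2B27 medium with 5 nM retinoic acid. Both sets mix control hairpins with knockdown hairpins. The knockdown targets are Lhx1os and Fendrr in CJ9, and Nr2f1as, Sox21os and Pou3f3os in 46c. These 13 libraries serve here only to place the values. Levels are in FPKM, fragments counted on an entry, corrected for its length in kilobases and for library size. Totals were 651717 to 655315 FPKM in CJ7 and 621535 to 628519 FPKM in CJ9, and the depth of the other 5 libraries relative to the CJ7 control, read from the steps between low loci, was 1.087 to 1.32. Whether the libraries come from separate cultures is not in the labels, and every p-value therefore reflects the spread among these 6 libraries alone.

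Mouse embryonic stem cells in LIF are held in the naive state by a circuit of factors that includes Klf2, Esrrb, Nanog and Zfp42 (Rex1). Without LIF this circuit is lost, the cells pass through a primed state like that of the epiblast, and Nodal and Wnt signals then drive part of them into the primitive streak, the site where mesoderm and endoderm arise. Eomes, Mixl1, T (brachyury) and Evx1 are transcription factors of the streak, and Mesp1 marks the earliest mesoderm that leaves it. Evx1as is transcribed divergently from the start region of Evx1.

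CJ7 held more RNA of naive pluripotency genes and less RNA of primitive streak genes than CJ9 on the same day. A minimum of 1 FPKM in 3 or more of the 6 libraries was met by 12655 entries. Of these, 3136 (24.8%) had all 3 CJ7 libraries above all 3 CJ9 libraries and 2886 (22.8%) had all 3 CJ7 libraries below. Limma's moderated test on log2(FPKM + 1), with Benjamini-Hochberg adjustment over the 12655 entries at 0.05, called 2055 entries (16.2%) higher in CJ7 and 1790 (14.1%) lower. Of all 12655 entries, 709 (5.6%) were called higher with means at least 2-fold apart and 417 (3.3%) were called lower with means at least 2-fold apart. The median absolute log2 difference over all tested entries was 0.241, against a median SD within a line of 0.143 in CJ7 and 0.122 in CJ9. Rescaling the libraries to the same total turned the split of calls to 1672 higher and 2249 lower. The median CJ7 minus CJ9 difference in log2 FPKM was then -0.0678 over the 11258 entries with at least 1 FPKM in all 6 libraries. With values as deposited, the calls were 1224 higher and 1178 lower without shEvx1as 1 and 1256 higher and 1056 lower without shEVX1 2. They were 1421 higher and 1061 lower without shEVX1 1. Of the tested entries, 352 reached the minimum in 1 line only and had to differ.

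**Figure D1:**
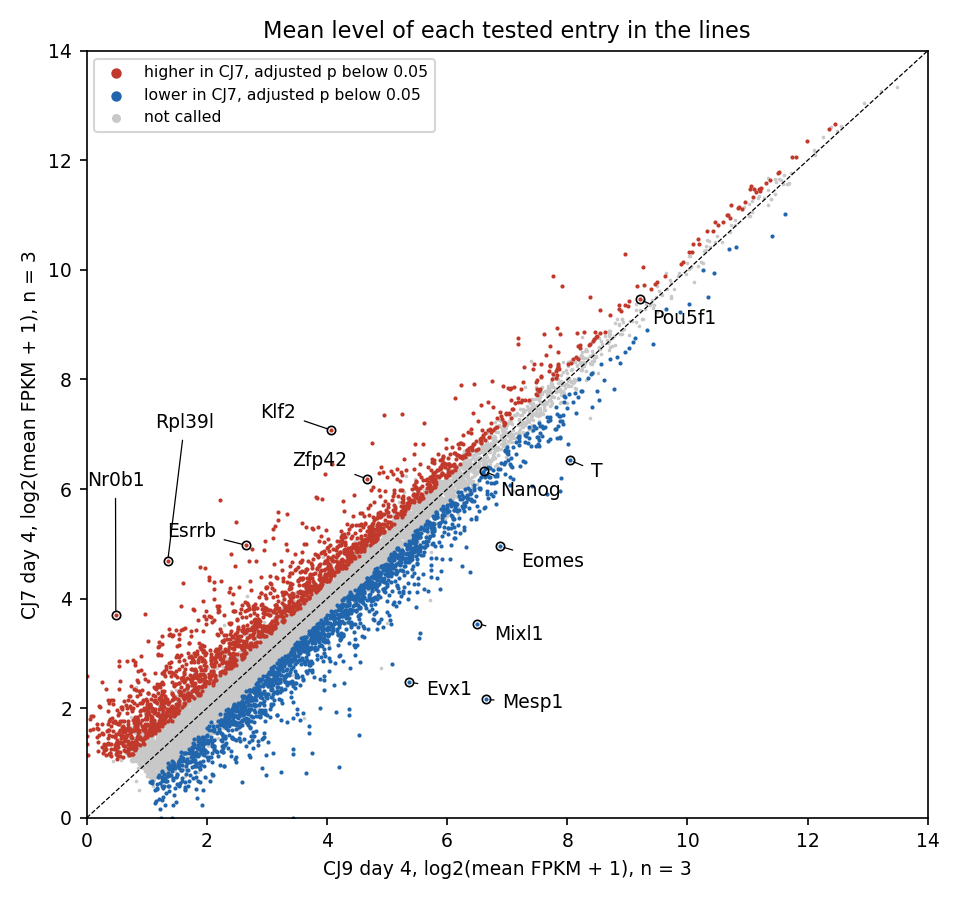
Mean level of each tested entry in CJ7 (vertical axis) and in CJ9 (horizontal axis), as log2(mean FPKM + 1) over 3 libraries each; red and blue points were called higher and lower in CJ7 by limma, and grey points were not called. Klf2, Esrrb and Zfp42 lie far above the diagonal, Mesp1, Mixl1 and Evx1 far below it, and Nanog and Pou5f1 lie near it.

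Klf2, a Krüppel-like factor of the naive circuit (chromosome 8, 74842961 to 74845553, mm9), was at 96.0, 129.9 and 176 FPKM in the CJ7 control, shEvx1as 1 and shEvx1as 2 libraries, against 20.3, 9.52 and 17.6 FPKM in the CJ9 control, shEVX1 1 and shEVX1 2 libraries. Values below follow this order of libraries. Every CJ7 library held more than 4 times the Klf2 of any CJ9 library (log2 difference 3.03 ± 0.29 SE, adjusted p = 0.000724 by limma). Esrrb, an orphan nuclear receptor of the same circuit (chromosome 12, 87702067 to 87862578), was at 28.4, 29.7 and 33.2 FPKM in CJ7, against 6.10, 3.11 and 6.69 FPKM in CJ9. Its CJ7 values were close to each other and lay far above all 3 CJ9 values (log2 difference 2.37 ± 0.22 SE, adjusted p = 0.000724 by limma). Zfp42, a zinc finger gene used as a marker of undifferentiated cells, was at 67.4, 73.4 and 74.4 FPKM in CJ7, against 27.7, 17.4 and 27.8 FPKM in CJ9, again without overlap (log2 difference 1.55, limma adjusted p = 0.00104). Nr0b1 (Dax1), a nuclear receptor cofactor on the X chromosome, was at 7, 11.2 and 17.7 FPKM in CJ7, against 0.465, 0.222 and 0.514 FPKM in CJ9. It reached the minimum of 1 FPKM in CJ7 only.

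Of the 20 naive pluripotency genes in the list used, 19 were tested. All CJ7 libraries lay above all CJ9 libraries in 15 (78.9%), against 24.8% of all entries. All 15 were called higher, against 16.2% of all entries, and none was called lower, against 14.1%. The median log2 difference of the 19 was 1.60, against 0.002 over all tested entries. The largest differences after Nr0b1 and Klf2 were in Tcl1, an activator of the kinase Akt (log2 difference 2.72), Esrrb, the growth factor Fgf4 (2.20) and Dppa5a, a small RNA-binding protein gene (2.18). Tdh, the threonine dehydrogenase of mouse embryonic stem cells, was at 89.6, 102 and 147 FPKM in CJ7 and 24.2, 23.5 and 30.5 FPKM in CJ9. The nuclear receptor gene Nr5a2 was at 5.73, 6.61 and 8.08 FPKM in CJ7 and 1.65, 0.935 and 1.505 FPKM in CJ9. Both were without overlap, at log2 differences of 2.05 and 1.73. Within CJ7, shEvx1as 2 held the highest value in 17 of the 19 genes, and the median of the list lay between 1.45 and 1.79 when any 1 library was left out. In bulk RNA, more cells of a type and more RNA in each cell cannot be told apart.

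Not every gene of the naive list differed. Nanog, the homeobox factor of the pluripotent state, was at 90.2, 82.7 and 65.3 FPKM in CJ7, against 77.1, 95.0 and 117 FPKM in CJ9, so the lines overlapped (log2 difference -0.27 ± 0.17 SE, adjusted p = 0.259 by limma). The log2 difference was -0.15 for Klf5, 0.05 for Tbx3 and -0.02 for Gbx2, factors whose libraries also overlapped. The 10 genes of the core pluripotency list had a median log2 difference of 0.27. Of them, 6 (60%) were called higher and 1 (10%) lower, against 16.2% and 14.1% of all entries. Pou5f1 (Oct4), the central factor of pluripotent cells, was at 689, 696 and 727 FPKM in CJ7, against 587, 581 and 599.6 FPKM in CJ9. This small difference without overlap (log2 0.26 ± 0.06 SE, limma adjusted p = 0.0163) was no longer called without shEvx1as 1 (limma adjusted p = 0.0593) or without shEVX1 1 (limma adjusted p = 0.0644), and over 16 alternatives limma's adjusted p ran from 0.0118 to 0.75, the last with all 19 libraries in 1 model. Larger differences in this list were those of Sox2, the partner of Oct4, at 69.7, 80.9 and 128 FPKM in CJ7 and 35.979, 32.3 and 44.8 FPKM in CJ9, and of the chromatin cofactor Utf1, at 331, 315 and 643 FPKM in CJ7 and 143, 163 and 126 FPKM in CJ9. Both were called higher (log2 differences 1.24 and 1.499), as were Dppa2 and Dppa4 (1.52 and 1.25). The RNA-binding protein gene Lin28b was the 1 called lower (-0.66).

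Genes of the primed epiblast were mostly higher in CJ7 or overlapped between the lines. Of the 14 genes, all tested, 7 (50%) were called higher and 1 (7.14%) lower, against 16.2% and 14.1% of all entries. The median log2 difference was 0.51. Foxd3, a forkhead factor of the epiblast, was at 14.5, 17.2 and 23.8 FPKM in CJ7, against 1.42, 3.41 and 1.28 FPKM in CJ9, the largest difference of the list (log2 2.72 ± 0.27 SE, limma adjusted p = 0.000825). Nodal, the signal that maintains the epiblast and induces the streak, was at 88.0, 93.6 and 91.8 FPKM in CJ7, against 61.1, 56.5 and 56.8 FPKM in CJ9 (log2 difference 0.64). With 12 group means over all 19 libraries in 1 model, limma's adjusted p for Nodal was 0.376 and for Utf1 0.11, the highest of the alternatives, the lowest being 0.000882 and 0.00121. The POU factor Pou3f1 and Sox3 were also called higher, with log2 differences of 1.02 and 1.12. Fgf5, the usual marker of the primed state, was at 28.1, 21.969 and 20.4 FPKM in CJ7, against 24.6, 39.4 and 42.4 FPKM in CJ9, and did not pass (limma adjusted p = 0.0812). Zic2, a zinc finger factor on chromosome 14, was the gene called lower, at 38.5, 31.6 and 21.952 FPKM in CJ7 and 44.3, 78.8 and 74.2 FPKM in CJ9. Its call was lost without shEVX1 1 (limma adjusted p = 0.0647) and without shEVX1 2 (limma adjusted p = 0.065), with a range of 0.00557 to 0.065 over the alternatives.

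Primitive streak genes were lower in CJ7. Mesp1, the factor of the earliest mesoderm (chromosome 7, 86937127 to 86938476), was at 6.77, 3.39 and 0.249 FPKM in CJ7, against 67.1, 108 and 122 FPKM in CJ9. It had the largest fall of all ranked genes (log2 difference -4.79 ± 0.59 SE, adjusted p = 0.00158 by limma), and the CJ9 control with the lowest CJ9 value stood far above the highest CJ7 value. Mixl1, a homeobox factor of mesendoderm on chromosome 1, was at 19.7, 10.5 and 1.84 FPKM in CJ7, against 82.1, 83.1 and 104 FPKM in CJ9 (log2 difference -3.36 ± 0.62 SE, limma adjusted p = 0.00617). The CJ9 values were near each other, while the CJ7 values spread downwards to shEvx1as 2. Eomes, the T-box factor of the streak and of definitive endoderm, was at 40.6, 30.4 and 19.075 FPKM in CJ7, against 79.6, 124 and 147 FPKM in CJ9. All 3 CJ7 values lay below all CJ9 values (log2 difference -1.94, limma adjusted p = 0.00305).

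The gene T was at 143, 105 and 25.9 FPKM in CJ7, against 326, 193 and 269.9 FPKM in CJ9. The lines did not overlap (log2 difference -1.80 ± 0.56 SE, limma adjusted p = 0.0434), but the size rested largely on shEvx1as 2, without which the log2 difference was -1.065. Limma's adjusted p for T was 0.0629 without shEvx1as 1, 0.116 without the CJ9 control, 0.0745 without shEVX1 1 and 0.112 without shEVX1 2, and the call of T was lost in 8 of 16 alternatives (0.013 to 0.127). Lhx1, a LIM homeobox factor of anterior mesendoderm, had 21.3, 5.80 and 0.885 FPKM in CJ7, against 24.3, 60.5 and 52.7 FPKM in CJ9. The controls of the lines lay near each other for Lhx1 and the knockdown libraries far apart, and the call (limma adjusted p = 0.0349) was lost without shEvx1as 1, shEVX1 1 or shEVX1 2 (limma adjusted p = 0.0851, 0.109 and 0.102, with a range of 0.00177 to 0.109 over the alternatives). Cyp26a1, the retinoic acid hydroxylase of the streak, was at 10.014, 5.90 and 1.98 FPKM in CJ7, against 26.3, 31.3 and 41.3 FPKM in CJ9, without overlap (log2 difference -2.45, limma adjusted p = 0.00484).

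Of the 26 genes in the list of primitive streak and presomitic mesoderm, 23 were tested, and all 23 had a negative log2 difference, with a median of -1.44. In 17 (73.9%) all CJ7 libraries lay below all CJ9 libraries, against 22.8% of all entries. The test called 15 (65.2%) lower and none higher, against 14.1% and 16.2% of all entries. Tbx6, a member of the list, reached the minimum in CJ9 only. The untested members were Wnt3a, Cdx4 and Hes7. Fgf8, a growth factor that moves cells away from the streak, was at 105, 61.2 and 18.2 FPKM in CJ7 and 126, 124 and 155 FPKM in CJ9 and did not pass (limma adjusted p = 0.0749). Gsc, the organizer factor goosecoid, was at 19.3, 10.8 and 1.98 FPKM in CJ7 and 16.0, 38.1 and 38.7 FPKM in CJ9, with overlap. Within CJ7, shEvx1as 2 held the lowest value in 20 of the 23 genes, and without it the median log2 difference was -1.03. Leaving out any other library gave medians as low as -1.79. The mean of log2(FPKM + 1) over the list was 3.63, 3.19 and 2.26 in CJ7, against 4.68, 4.59 and 4.79 in CJ9, so that the control of CJ7 was the CJ7 library nearest to CJ9. For the naive list these means were 4.43, 4.63 and 4.92 in CJ7 and 3.41, 2.95 and 3.33 in CJ9.

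**Figure D2:**
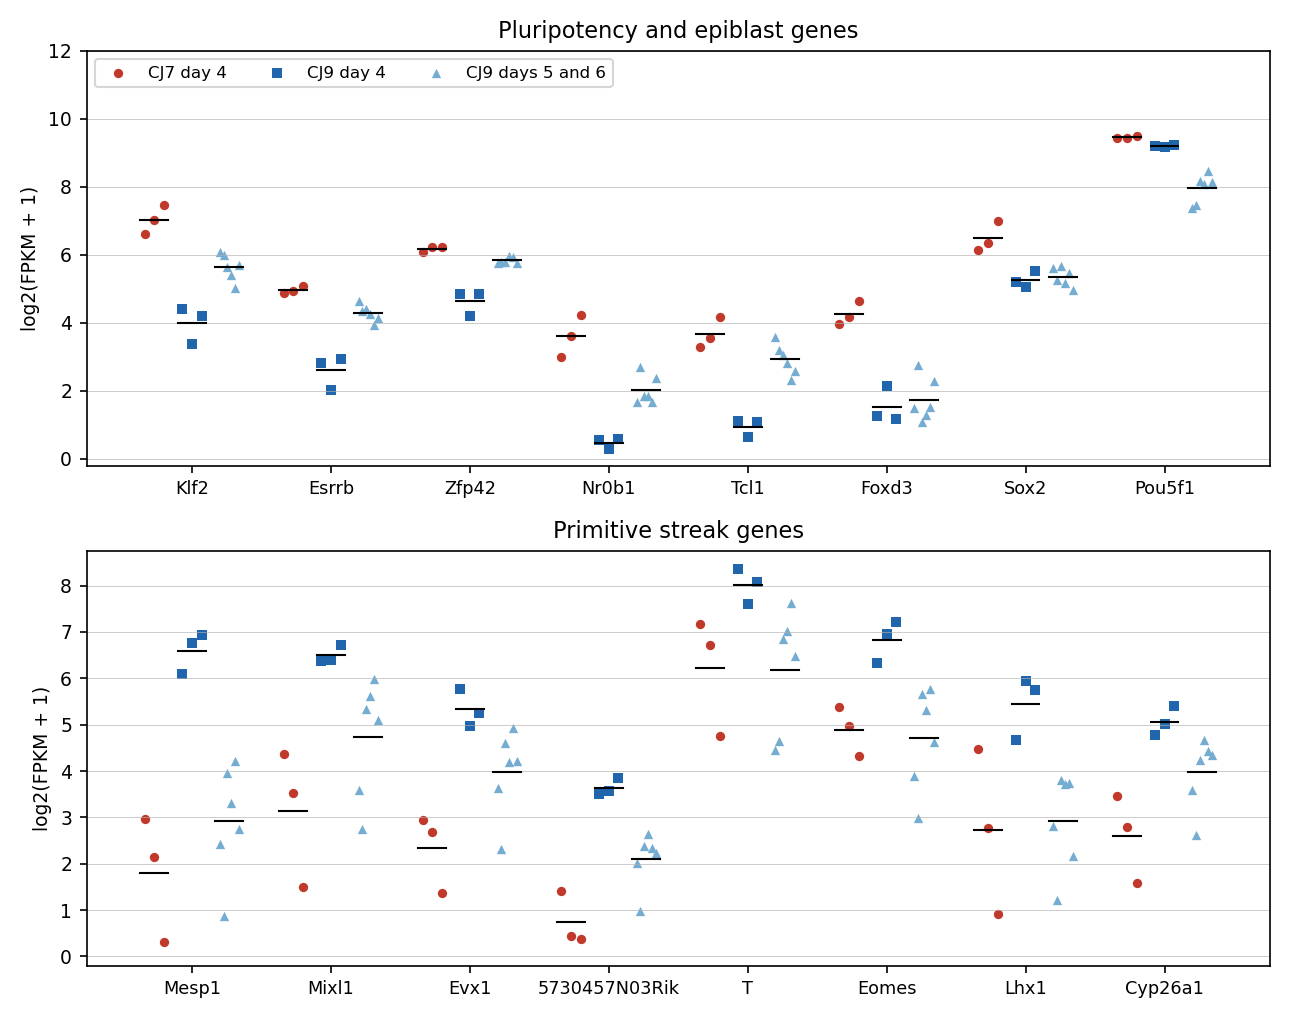
Level of 8 pluripotency and epiblast genes (upper panel) and 8 primitive streak entries (lower panel) as log2(FPKM + 1) in each CJ7 day-4 library (circles), CJ9 day-4 library (squares) and CJ9 library of days 5 and 6 (triangles); bars mark group means. Klf2, Esrrb and Nr0b1 are highest in CJ7 and lowest in CJ9 at day 4, while Mesp1, Mixl1 and Evx1 are highest in CJ9 at day 4.

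Evx1, a homeobox factor of the posterior streak (chromosome 6, 52263492 to 52268372), was at 6.71, 5.43 and 1.57 FPKM in CJ7, against 53.9, 30.2 and 37.0 FPKM in CJ9. Even the CJ9 libraries with hairpins against EVX1 held more Evx1 than any CJ7 library, the CJ7 control included (log2 difference -3.001 ± 0.40 SE, adjusted p = 0.0019 by limma). The Evx1as entry carries the name 5730457N03Rik (chromosome 6, 52258383 to 52264826) and had 1.66, 0.354 and 0.29 FPKM in CJ7, against 10.4, 10.8 and 13.4 FPKM in CJ9. It was lower in CJ7 also in the control pair, where no hairpin targets it (log2 difference over all 6 libraries -2.90 ± 0.27 SE, limma adjusted p = 0.000719). The libraries were made with a stranded kit, but the sources used here do not say whether counting used the strand. The RefSeq genes Evx1 and Evx1os (RefSeq's symbol for Evx1as) share 1335 bases on opposite strands in GRCm38.p6, and in counting without strand the reads of the shared bases would fall to both.

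The promoter windows of Evx1, Evx1as, Mesp1 and Zfp42 are shown because these genes mark the opposite sides of the comparison and because Evx1 and Evx1as start near each other. Each window runs from 250 bases before to 50 bases after the start of the gene, as given by RefSeq for GRCm38.p6, and is written 5′ to 3′ on the strand of the gene. Capitals mark matches, on either strand, to the T-box site TCACACCT or to the octamer ATTTGCAT, a sequence bound by Oct4 and its relatives. Evx1 is at chr6:52313248-52313547 on the plus strand, Evx1os at chr6:52314783-52315082 on the minus strand, Mesp1 at chr7:79793541-79793840 on the minus strand and Zfp42 at chr8:43306960-43307259 on the minus strand.
Evx1: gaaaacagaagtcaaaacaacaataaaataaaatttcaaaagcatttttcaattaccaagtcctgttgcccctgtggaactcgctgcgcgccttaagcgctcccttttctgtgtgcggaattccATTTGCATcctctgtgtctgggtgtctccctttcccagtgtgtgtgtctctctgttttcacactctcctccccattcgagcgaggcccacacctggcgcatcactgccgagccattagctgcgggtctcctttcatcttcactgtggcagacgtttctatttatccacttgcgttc
Evx1os: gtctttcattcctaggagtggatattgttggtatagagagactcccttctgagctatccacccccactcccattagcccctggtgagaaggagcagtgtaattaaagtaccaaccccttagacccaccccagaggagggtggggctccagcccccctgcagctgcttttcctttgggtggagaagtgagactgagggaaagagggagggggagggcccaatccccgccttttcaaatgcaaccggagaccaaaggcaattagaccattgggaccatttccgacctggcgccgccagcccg
Mesp1: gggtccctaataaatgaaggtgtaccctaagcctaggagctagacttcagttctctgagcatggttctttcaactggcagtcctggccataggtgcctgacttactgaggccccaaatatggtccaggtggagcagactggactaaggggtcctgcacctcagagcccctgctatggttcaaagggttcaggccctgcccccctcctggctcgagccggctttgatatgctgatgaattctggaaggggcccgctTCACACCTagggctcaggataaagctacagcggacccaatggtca
Zfp42: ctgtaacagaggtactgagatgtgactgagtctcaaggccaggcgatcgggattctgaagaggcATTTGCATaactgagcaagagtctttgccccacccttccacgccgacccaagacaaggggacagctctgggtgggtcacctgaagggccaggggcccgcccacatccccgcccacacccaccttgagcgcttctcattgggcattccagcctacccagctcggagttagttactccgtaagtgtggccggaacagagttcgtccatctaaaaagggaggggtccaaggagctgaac
Among these windows the T-box letters stood once in Mesp1, and the octamer stood once in Evx1 and once in Zfp42, so the octamer was found on both sides of the comparison. Of all 32851 promoter windows of the RefSeq table, 1.28% held the T-box letters and 1.74% the octamer. Among windows of genes called higher in CJ7 with means at least 2-fold apart (522 windows of 406 matched genes) these shares were 0.575% and 2.3%, and among those called lower (346 windows of 275 genes) 0.867% and 1.73%. The estrogen-related receptor letters TCAAGGTCA, the type of site Esrrb binds, stood in 0.423% of all windows, in 1 window of the genes called higher and in none of those called lower. The motifs do not overlap each other in these letters, and they were chosen after the sequences had been read. A match in this window is a description and no measured site.

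The lists of signalling pathways are read against the 16.2% of all tested entries that were called higher and the 14.1% called lower. Of 20 tested Wnt pathway genes, 9 (45%) were called lower and 1 (5%) higher, with a median log2 difference of -0.46. Dkk1, a secreted Wnt antagonist, was at 2.54, 1.05 and 0.547 FPKM in CJ7, against 8.93, 11.8 and 8.83 FPKM in CJ9 (log2 difference -2.26, limma adjusted p = 0.00163). The Wnt agonist Rspo3 was at 2.83, 1.37 and 1.21 FPKM in CJ7, against 5.77, 4.14 and 7.46 FPKM in CJ9 (log2 difference -1.29). The gene called higher was the Wnt deacylase Notum, at 4.40, 4.93 and 4.01 FPKM in CJ7 and 1.39, 1.27 and 1.35 FPKM in CJ9. Of 13 tested Nodal pathway genes, 2 (15.4%) were called higher and 1 (7.69%) lower, shares no greater than those of all entries. The genes called higher were Nodal and the ligand gene Gdf3, Gdf3 at 30.6, 35.4 and 48.9 FPKM in CJ7 and 13.8, 12.2 and 11.2 FPKM in CJ9. The antagonist of activin Fst was called lower, at 16.3, 13.6 and 10.1 FPKM in CJ7 and 36.3, 39.3 and 54.8 FPKM in CJ9. In the FGF list Fgf4, the ligand of undifferentiated cells, was at 11.1, 15.4 and 31.6 FPKM in CJ7 and 3.06, 4.00 and 2.30 FPKM in CJ9, while Fgf3 was at 2.08, 1.02 and 0.695 FPKM in CJ7 and 4.82, 9.63 and 8.27 FPKM in CJ9. Of its 18 tested genes, 3 (16.7%) were called higher and 4 (22.2%) lower, and 44.4% were without overlap, against 47.6% of all entries. The minimum was reached in 1 line only by 1 of the 18. In the BMP list of 14 tested genes, 1 (7.14%) was called higher and 5 (35.7%) lower, among them the homeobox targets Msx1 and Msx2 (log2 differences -1.56 and -1.22). Bmper, also called lower, reached the minimum in CJ9 only.

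Mesoderm and endoderm lists gave mixed counts. Of 19 tested genes of lateral and cardiac mesoderm, 9 (47.4%) were called lower and 3 (15.8%) higher, against 14.1% and 16.2% of all entries (median -0.56). Of the 19, 2 reached the minimum in 1 line only. The growth factor receptor gene Pdgfra was at 1.16, 0.53 and 0.46 FPKM in CJ7, against 4.89, 8.01 and 7.83 FPKM in CJ9, and the repressor gene of epithelial identity Snai1 at 28.8, 20.9 and 14.4 FPKM in CJ7, against 73.0, 78.1 and 96.2 FPKM in CJ9. Both were without overlap (log2 differences -2.20 and -1.94). Acta2, smooth muscle actin, went the other way, at 147, 227 and 114 FPKM in CJ7 and 36.3, 32.7 and 20.5 FPKM in CJ9 (log2 difference 2.39, limma adjusted p = 0.00128). Of 13 tested genes of definitive endoderm and organizer, 4 (30.8%) were called lower and 2 (15.4%) higher, 1 of which, Foxa1, reached the minimum in CJ7 only. The median of -0.20 ran from -0.66 to 0.09 when 1 library was left out. The chemokine receptor gene Cxcr4, called lower, was at 5.46, 2.00 and 1.45 FPKM in CJ7 and 13.952, 24.3 and 20.6 FPKM in CJ9. Foxa2 and Sox17, the defining factors of endoderm, overlapped between the lines. Foxa2 was at 11.6, 4.28 and 2.01 FPKM in CJ7 and 1.29, 9.50 and 5.76 FPKM in CJ9, so the CJ7 control was the highest library and the CJ9 control the lowest.

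**Figure D3:**
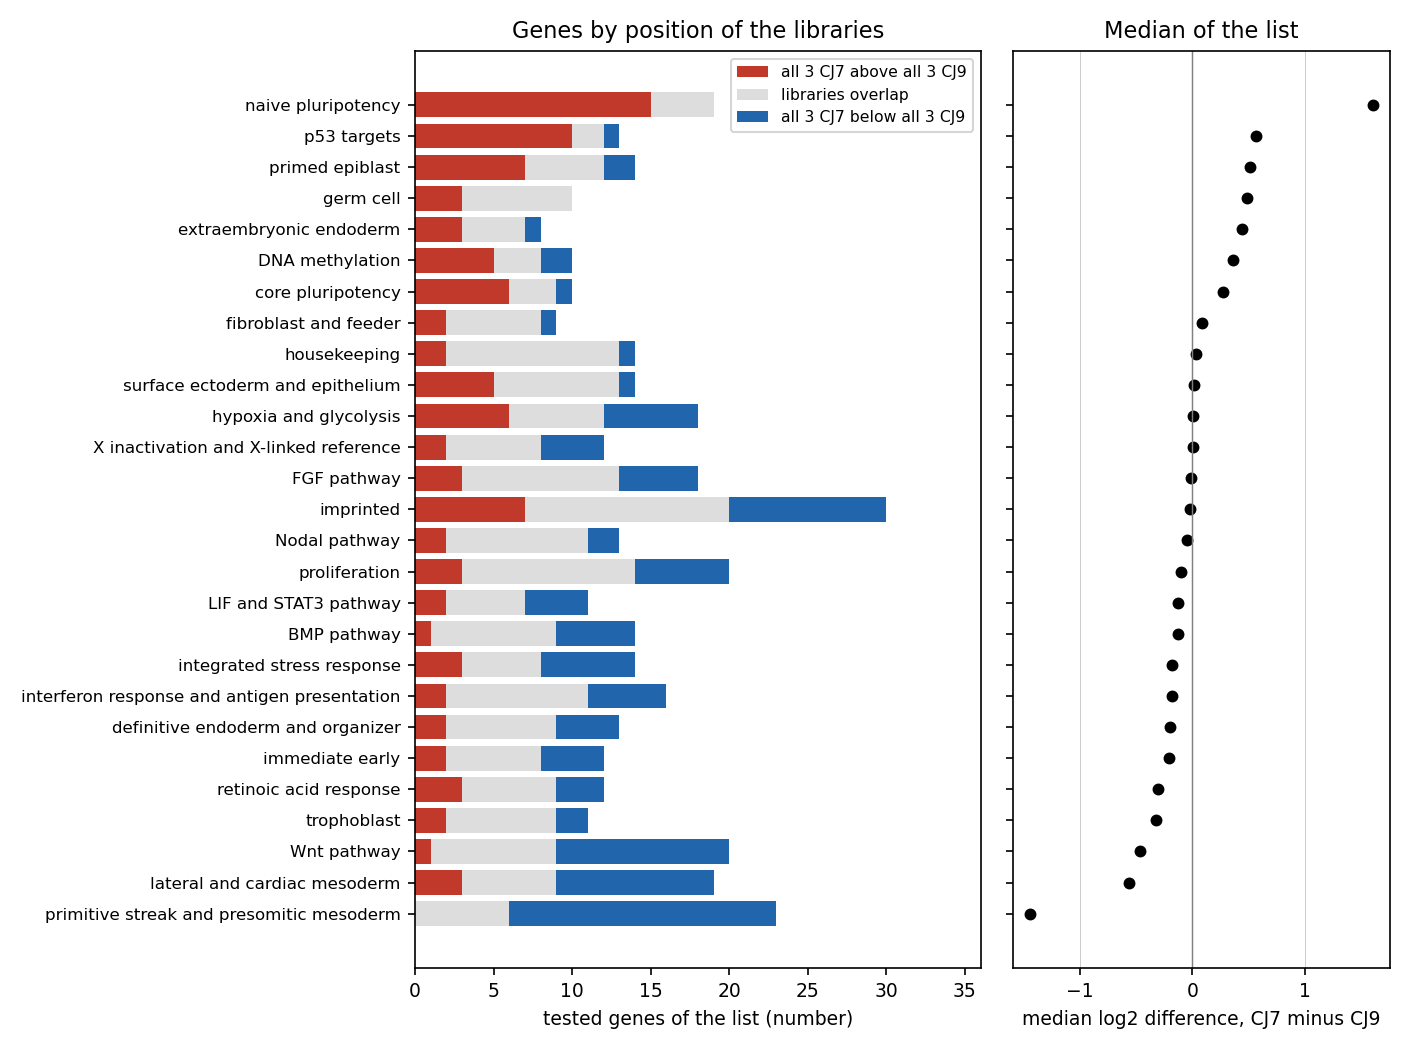
For each gene list with at least 8 tested genes, the number of genes with all 3 CJ7 libraries above (red), overlapping with (grey) or below (blue) all 3 CJ9 libraries, and the median log2 difference of the list (CJ7 minus CJ9, right panel). Naive pluripotency, with a median of 1.60, and primitive streak, with -1.44, are the ends of the order; over all tested entries 24.8% lay above and 22.8% below.

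Both lines carried the markers of pluripotent and streak cells, and markers of other cell types were present at unequal levels. The neural plate factors Sox1 and Pax6 were at 0.986, 0.901 and 2.91 FPKM and 0.542, 1.60 and 0.709 FPKM in CJ7, against 0.518, 0.229 and 0.664 FPKM and 0.183, 0.0934 and 0.266 FPKM in CJ9, below 83.3 to 111 FPKM and 45.5 to 89.8 FPKM in the 46c libraries. The embryonic globin Hbb-bh1 was listed at 0 in all 6 libraries, the erythroid factor Gata1 stayed at or below 0.168 FPKM and the trophoblast factor Elf5 at or below 0.0435 FPKM. The fibroblast gene Postn stayed at or below 0.228 FPKM, while Col1a1 was at 7.06, 8.70 and 4.05 FPKM in CJ7 and 6.01, 5.41 and 4.08 FPKM in CJ9 and Thy1 at 11.6, 16.5 and 13.2 FPKM in CJ7 and 3.32, 6.10 and 5.51 FPKM in CJ9. Summed over the 15 fibroblast and feeder genes, 10 of which reached 1 FPKM in a library, the level was 367 to 572 FPKM in CJ7 and 558 to 764 FPKM in CJ9, most of it from fibronectin and vimentin. Of the 9 tested fibroblast and feeder genes, 2 (22.2%) were called higher and 1 (11.1%) lower, against 16.2% and 14.1% of all entries (median 0.09). Lox, called higher, reached the minimum in CJ7 only. The mean of log2(FPKM + 1) over these 9 was 3.61, 3.71 and 3.30 in CJ7, against 3.47, 3.35 and 3.28 in CJ9. Of 14 tested genes of surface ectoderm and epithelium, 5 (35.7%) were called higher and none lower, against 16.2% and 14.1% of all entries. Among the 5, Dlx5 reached the minimum in CJ7 only and had to differ. The largest difference was in the epithelial factor Grhl2 (log2 1.24), while the keratins Krt8 and Krt18 overlapped between the lines. Krt8 was at 560.0, 664 and 359.8 FPKM in CJ7 and 730.5, 563 and 394 FPKM in CJ9, and Krt18 at 449, 553 and 287 FPKM in CJ7 and 579.8, 422 and 287 FPKM in CJ9, so both lines held these epithelial keratins at high levels. The 16 genes of this list, 14 of which reached 1 FPKM in a library, summed to 1352 to 2109 FPKM in CJ7 and 1342 to 2281 FPKM in CJ9. The trophoblast list of 16 genes, 11 of which reached 1 FPKM in a library, summed to 84.0 to 109 FPKM in CJ7 and 169.8 to 207 FPKM in CJ9. It shares Eomes with the streak list, and its placental genes Tpbpa, Prl3d1 and Prl2c2 were listed at 0 in all 6 libraries. The extraembryonic endoderm list of 17 genes, 11 of which reached 1 FPKM, summed to 379.7 to 451 FPKM in CJ7 and 272 to 346 FPKM in CJ9. Most of it came from Sparc, at 257, 303 and 225 FPKM in CJ7 and 216, 185 and 165 FPKM in CJ9. Of the 8 tested genes of this list, 2 (25%) were called higher and 1 (12.5%), Gata6, lower, against 16.2% and 14.1% of all entries. The blood and endothelium list of 18 genes, 8 of which reached 1 FPKM, summed to 15.5 to 27.3 FPKM in CJ7 and 15.4 to 18.9 FPKM in CJ9. The 16 neural progenitor genes summed to 71.5 to 79.8 FPKM in CJ7 and 58.5 to 67.5 FPKM in CJ9, and 6 of them reached 1 FPKM in a library. Only 3 were tested, of which 2 were called higher, against 16.2% of all entries. Zic1 was at 1.59, 2.18 and 2.62 FPKM in CJ7 and 0.124, 0.0838 and 0.176 FPKM in CJ9 and passed the minimum in CJ7 only. The part of such cells in the differences above was not tested.

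Lists outside the germ layers were counted in the same way. Of 13 tested p53 targets, 9 (69.2%) were called higher and 1 (7.69%) lower, against 16.2% and 14.1% of all entries, with a median log2 difference of 0.57. Perp, a membrane protein of apoptosis and adhesion, was at 94.0, 122 and 119 FPKM in CJ7, against 55.4, 45.2 and 42.03 FPKM in CJ9, and Mdm2, the ubiquitin ligase that restrains p53, at 59.4, 80.5 and 86.2 FPKM in CJ7, against 41.6, 34.5 and 35.6 FPKM in CJ9. Both pairs of groups were apart (log2 differences 1.22 and 0.98). The exception was Pmaip1 (Noxa), called lower at 5.47, 5.04 and 8.34 FPKM in CJ7 and 12.9, 12.4 and 11.6 FPKM in CJ9. Of 10 tested genes of DNA methylation, 4 (40%) were called higher and 1 (10%) lower. Dnmt3l, the cofactor of the de novo methyltransferases, was at 86.6, 85.2 and 164 FPKM in CJ7 and 50.4, 23.8 and 54.6 FPKM in CJ9, and the dioxygenase gene Tet2 at 2.37, 2.38 and 2.94 FPKM in CJ7 and 0.873, 0.751 and 0.733 FPKM in CJ9. Tet2 reached the minimum in CJ7 only. Dnmt3l overlaps the entry Aire, which itself was among the entries higher in CJ7. In the integrated stress response list, 5 (35.7%) of 14 tested genes were called lower and 3 (21.4%) higher, with a median of -0.18. The factor Atf4 was at 44.8, 51.9 and 52.9 FPKM in CJ7 and 89.2, 93.3 and 111 FPKM in CJ9 and its target Chac1 at 2.23, 2.37 and 2.43 FPKM in CJ7 and 6.73, 8.08 and 12.4 FPKM in CJ9. Both were lower in every CJ7 library.

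Imprinted genes, of which 30 of 42 were tested, had 4 (13.3%) called higher and 8 (26.7%) lower with a median of -0.02. Over all entries these shares were 16.2% and 14.1%, and 2 of the 30 genes reached the minimum in 1 line only. Phlda2, a maternally expressed growth regulator, was at 75.3, 46.4 and 63.3 FPKM in CJ7, against 216, 215 and 268 FPKM in CJ9 (log2 difference -1.92 ± 0.17 SE, limma adjusted p = 0.000652). The housekeeping list of 14 tested genes had a median of 0.03 and 1 call (7.14%), against 30.4% of all entries. The gene called was the ribosomal protein gene Rpl13a (log2 difference 0.27). Its call was lost without shEvx1as 1 (limma adjusted p = 0.0798) and without shEVX1 2 (limma adjusted p = 0.0596), with a range of 0.00608 to 0.124 over the alternatives. Of the 9 genes in the Y-linked list 2 were tested. Uba1y was at 1.38, 1.88 and 2.81 FPKM in CJ7, against 0.0686, 0 and 0.039 FPKM in CJ9, and Eif2s3y at 2.74, 2.89 and 3.57 FPKM in CJ7, against 1.502, 1.81 and 1.76 FPKM in CJ9. Both were called higher, and Uba1y reached the minimum in CJ7 only. In the CJ9 libraries of days 5 and 6 Eif2s3y was at 1.58 to 8.39 FPKM, a range that holds the CJ7 values. Uba1y was at 0.08 to 0.208 FPKM there. Uba1y has an X-linked relative, and the sources used here do not say how the authors' counting treated shared reads. Xist, the RNA of X inactivation, stayed low in both lines, at 1.33, 1.38 and 2.11 FPKM in CJ7 and 0.475, 0.52 and 0.464 FPKM in CJ9, and reached the minimum in CJ7 only.

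The largest rises over all ranked genes included genes outside these lists. Rpl39l, a ribosomal protein gene with near-identical relatives (chromosome 16, 10170321 to 10175004), was at 17.6, 32.5 and 24.0 FPKM in CJ7, against 1.25, 1.88 and 1.51 FPKM in CJ9 (log2 difference 3.30 ± 0.21 SE, limma adjusted p = 0.00047). Rpl10l, of the same kind, was at 14.9, 26.1 and 27.5 FPKM in CJ7, against 3.65, 1.80 and 2.61 FPKM in CJ9. The values of both are uncertain, since reads can be shared with their relatives. The steroid dehydrogenase gene Hsd17b14, the myosin light chain gene Mylpf, Gtsf1l and the bHLH factor Tcf15 were the other rises of this kind, with log2 differences of 2.86, 2.57, 2.39 and 2.30. Among the largest falls beside streak genes were the cadherin Cdh11 (-3.33), Grrp1 (-3.08), the secreted Wnt antagonist Frzb (-2.60), the growth arrest gene Gas1 (-2.52) and Optc (-2.40).

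CJ9 libraries of days 5 and 6 came from separate experiments, with control hairpins and hairpins against Lhx1os (day 6) or Fendrr (day 5). Day, experiment and hairpin target differ together from the day-4 libraries. The same 3 CJ7 libraries are set against them, so their values are given beside the day-4 values and not as a second comparison. Over all tested entries, 16.6% had CJ7 above and 16.4% had CJ7 below the later CJ9 libraries. Klf2 was at 31.9 to 67.1 FPKM, Esrrb at 14.4 to 24.0 FPKM and Zfp42 at 53.3 to 61.7 FPKM in the later CJ9 libraries, between the day-4 levels of the lines. Of the 19 naive genes 9 lay above all later CJ9 libraries in CJ7 and 3 below.

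Streak genes mostly overlapped with the later CJ9 libraries. Mesp1 was at 0.82 to 17.5 FPKM, Mixl1 at 5.72 to 62.2 FPKM, Evx1 at 3.97 to 29.2 FPKM and T at 20.9 to 195 FPKM in them, ranges that hold the value of at least 1 CJ7 library each. The lowest values of Mesp1, Mixl1 and Evx1 were those of the day-6 library with the hairpin against Lhx1os. In the remaining later CJ9 libraries Evx1 was at 11.4 to 29.2 FPKM, above every CJ7 library, so its overlap rested on that library. Of the 23 tested genes of that list, 3 lay below all later CJ9 libraries in CJ7 and 1 lay above. A set of 23 entries, 20 of them named, had every CJ7 library at least 2-fold above each of the 16 other libraries of the series and at 2 FPKM or more, and 4 had every CJ7 library at least 2-fold below. These sets were chosen after their values were seen. The first includes Dppa5a, whose CJ7 values of 778, 979 and 1090.0 FPKM stand against at most 297 FPKM in any other library, Foxd3, Fgf4, Rpl39l and the endothelial coreceptor gene Eng. The second comprises 2610034B18Rik, Dpysl2, Fam213a and the RNA-binding protein gene Igf2bp3.

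Lower levels in CJ7 gathered on certain chromosomes. The median log2 difference of the named tested entries was -0.38 on chromosome 1, where 418 of 652 entries (64.1%) had all CJ7 libraries below all CJ9 libraries and 48 had them above. It was -0.40 on chromosome 14, with 281 of 445 entries (63.1%) below and 38 above, and -0.21 on chromosome 8, with 291 of 666 (43.7%) below and 79 above. The highest chromosome medians were 0.15 on chromosome 15 and 0.12 on chromosome 19. With 3 libraries against 3, the exact two-sided permutation test gave p = 0.1 for each of these 5 chromosomes, the smallest p this design allows. The next values cover 8333 named entries with a mean of at least 5 FPKM. Each entry was centred on its mean over the 19 libraries, and each library then on its own median. The chromosome 1 median was -0.325 to -0.31 in CJ7, against 0.095 to 0.124 in CJ9 at day 4. It was 0.095 to 0.194 in the later CJ9 libraries and -0.102 to 0.023 in the 46c libraries, so on chromosome 1 the 3 CJ7 libraries stood apart from all others. On chromosome 14 the median was -0.22 to -0.194 in CJ7, against 0.196 to 0.221 in CJ9 at day 4 and 0.183 to 0.31 later, while the 46c libraries at -0.278 to -0.175 lay near CJ7. On chromosome 8 the CJ7 libraries at -0.12 to 0.016 lay between CJ9, at 0.171 to 0.178 on day 4, and 46c, at -0.203 to -0.16.

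**Figure D4:**
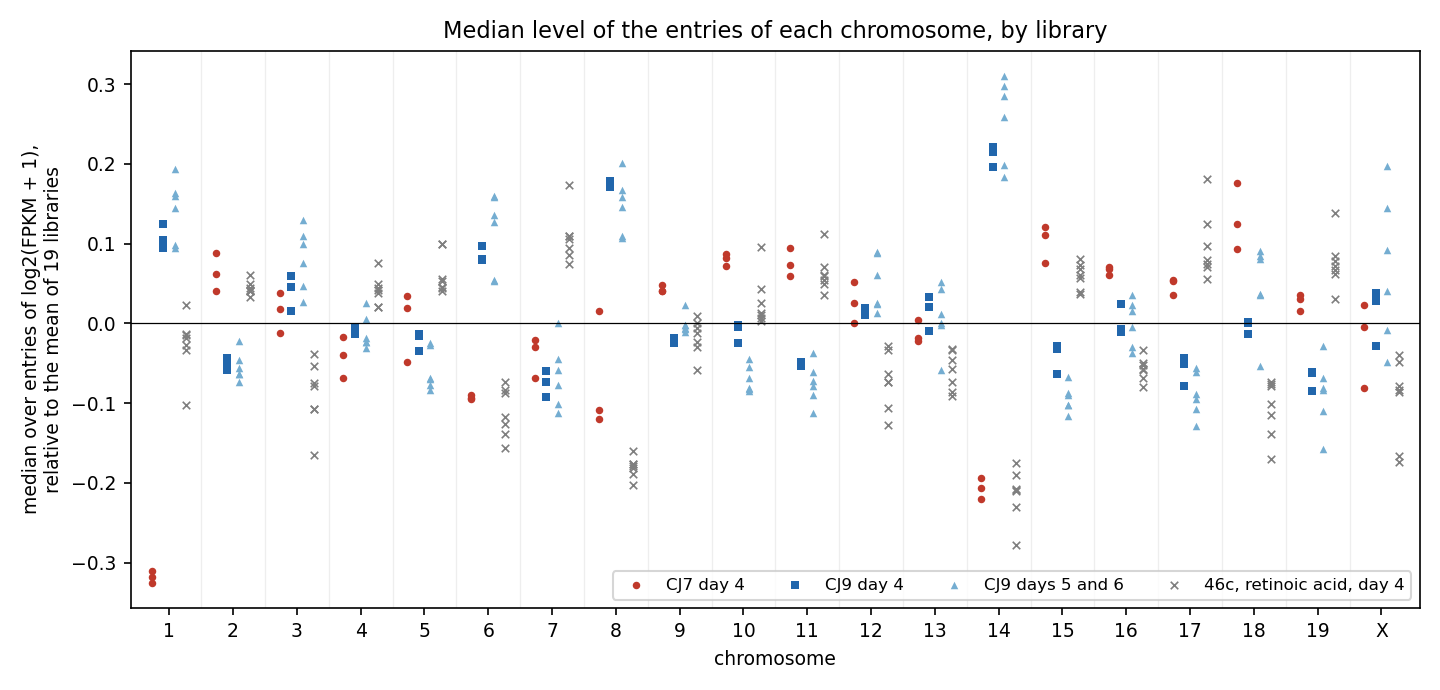
Median over entries of log2(FPKM + 1), relative to the mean of the 19 libraries, for each chromosome and library: CJ7 day 4 (circles), CJ9 day 4 (squares), CJ9 days 5 and 6 (triangles) and 46c with retinoic acid (crosses). The median of each library over all these entries was also subtracted. All 3 CJ7 libraries lie at -0.31 or lower on chromosome 1, and on chromosome 14 all 9 CJ9 libraries lie at 0.183 or higher.

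In windows of 10 Mb with at least 10 tested entries, 26 of 242 had a median log2 difference of -0.35 or lower and none had 0.35 or higher. Of these 26 windows, 13 lay on chromosome 1, 7 on chromosome 14, 5 on chromosome 6 and 1 on chromosome 8. On chromosome 6 the lower levels were most frequent in a stretch. Between 42 and 87 Mb (mm9), bounds read off the values, 134 of 158 tested entries (84.8%) had all CJ7 libraries below all CJ9 libraries and 1 had them above, with a median log2 difference of -0.68. Before this stretch the median of 98 entries was -0.16, with 32 (32.7%) below, and after it the median of 259 entries was 0.06, with 46 (17.8%) below. The window from 30 to 40 Mb, outside the stretch, had a median of -0.357 with 23 of 44 entries below. Evx1 and its antisense entry lie inside the stretch. Their log2 differences were -3.001 and -2.90, and the lower quartile of the stretch was -0.91. Hk2 (hexokinase, 15.9, 12.6 and 12.3 FPKM in CJ7 and 36.5, 32.5 and 35.0 FPKM in CJ9) and Igf2bp3 lie inside it too. The cause of the chromosome differences was not tested, and their part in single genes was not tested.

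**Figure D5:**
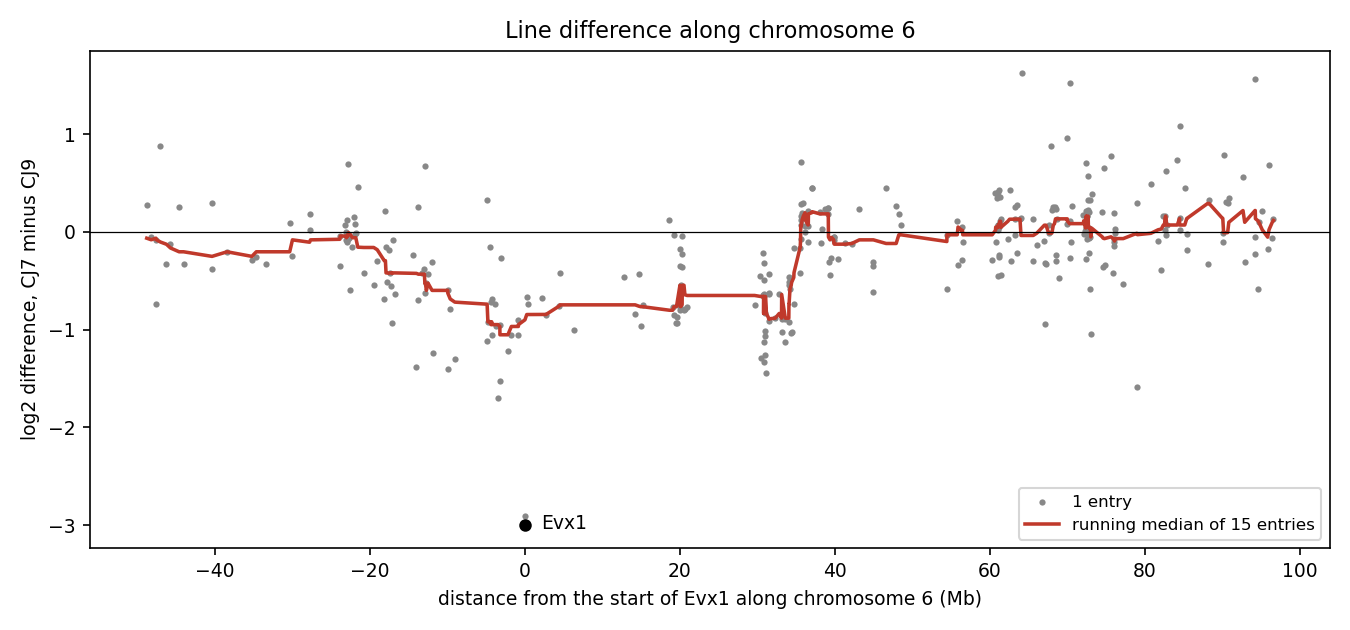
Log2 difference (CJ7 minus CJ9) of each named entry of chromosome 6 with a mean of at least 5 FPKM, by distance from the start of Evx1 in Mb; the red line is the running median of 15 entries. The running median is negative on both sides of Evx1, comes near 0 at positive distances beyond the stretch and is below 0 at all negative distances, and Evx1 itself lies far below it.

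Outside chromosomes 1, 8 and 14 and the stretch of chromosome 6, a restriction chosen after seeing these values, 10589 entries were tested. Of these, 1928 (18.2%) were called higher and 861 (8.13%) lower, of the 2055 called higher and 1790 called lower over all regions. The naive list had 11 tested genes there, with 9 having all CJ7 libraries above and none below (median 1.75). The streak list had 20, with 14 below and none above (median -1.34). Over the 10589 entries 27.9% lay above and 16.2% below. Of 20 tested proliferation genes, 4 (20%) were called lower, against 14.1% of all entries. These included the replication helicase genes Mcm3 and Mcm6 on chromosome 1. All CJ7 libraries lay above in 3 of the 20 and below in 6, with a median of -0.1. Among the 17 tested outside the regions, 3 lay above and 3 below, with a median of 0.02. Klf2 and Zfp42, higher in CJ7, lie on chromosome 8, whose median log2 difference was -0.21. The part of the chromosome differences in these genes was not tested.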

How the data were processed

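The authors deposited 1 table of FPKM values with 38424 entries, 11588 of them unnamed loci, and 1 column for each of 19 libraries. Per the labels' protocols, polyadenylated RNA selected on beads went into a stranded library kit. The tools named in the submitters' processing notes are TopHat2 2.0.11 and CASAVA, and the builds are mm9 and mm10. The sources used here name neither quantifier nor annotation. Positions in the table are given as mm9: 116 entries lie on random chromosomes, and 5.1% of 18864 matched symbols end within 1000 bp of GRCm38. Starts were made 1-based. Promoter sequences are RefSeq's for GRCm38.p6. Absolute depth was not derived, so no counting intervals are given, and high levels are more precise than low ones.

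An entry was kept if 3 or more of the 6 libraries reached 1 FPKM. Limma 3.58.1 in R 4.3.3 compared CJ7 with CJ9 on log2(FPKM + 1), a scale that understates changes of low genes, with 4 residual degrees of freedom, a variance prior that follows the mean, and Benjamini-Hochberg adjustment at 0.05, two-sided. In simulated libraries in which 200 of 12655 entries were changed, the share of changes recovered was 82.8% at 2-fold and 96.2% at 4-fold, and 5.1% of calls were false. Changes were placed only in entries with a mean log2(FPKM + 1) above 2, with independent normal noise. In the data 30.4% of entries were called, so these shares cover neither low entries nor a comparison with as many changes. The labels give hairpin numbers, but same-numbered libraries of the lines carry different hairpins, and their deviations had a correlation of 0.0102, so no block was used. The genes named are the 12 largest called rises and falls, up to 4 members of each list without overlap and fixed markers. Gsc, Klf5, Tbx3, Gbx2, Lin28b, Tdh, Nr5a2 and Dppa5a were added after their values were seen. Genes such as Tbx6, Foxa1, Otx2, Cer1, Trh and Myl7 also lie outside that rule and are named for the filter or pattern they showed. The members and the gene lists were chosen with earlier results of these data known. Alternatives covered the pseudocount, filter, scaling, model, hairpins and each library left out.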

Additional observations from a re-analysis of the deposited data

Results flagged for a closer look

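In 7 of the genes named, the control pair of libraries and the knockdown pairs differed in opposite directions between the lines, and this difference was not tested. The value given is CJ7 minus CJ9 in FPKM for the control libraries. It was 13.1 FPKM for Nanog, 3.53 FPKM for Fgf5, 1.69 FPKM for Sox17, 10.3 FPKM for Foxa2 and 3.34 FPKM for Gsc, where every CJ7 knockdown library lay below every CJ9 knockdown library. It was -6.44 FPKM for Tbx3 and -3.34 FPKM for Gbx2, where every CJ7 knockdown library lay above every CJ9 knockdown library. Over the 368 tested genes of all lists, 24 (6.52%) showed the first pattern, among them Otx2, Cer1, Trh and Myl7, and 15 (4.08%) the second, against 6.58% and 5.14% of all 12655 tested entries. None of the 7 was called between the lines by limma, and each control value is 1 library.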

How the results depend on the processing

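With 1 library left out, the calls numbered between 1224 and 2053 higher and between 1056 and 1665 lower. It was 1224 and 1178 without shEvx1as 1, 1256 and 1056 without shEVX1 2, and 1061 lower without shEVX1 1. Entries with CJ7 below numbered 4396 with knockdown libraries only, 2 against 2, where separation is easier by construction. The control libraries alone, 1 against 1, had CJ7 above in 6508 entries and below in 6143. Outside chromosomes 1, 8 and 14 and the stretch of chromosome 6, 861 entries were called lower and 1716 had CJ7 below. These last settings were chosen after seeing the data. A replicate block over equal hairpin numbers gave 1898 higher and 1734 lower calls. With libraries rescaled to the same total, chromosome medians were -0.437 on 1, -0.452 on 14, 0.094 on 15 and 0.066 on 19. Of 2202 values of 131 named genes under the alternatives, 1960 kept direction and side of the threshold, 121 lost the call, 28 gained it, 78 without a test moved and 15 reversed. The reversed values were those of genes not called with all 6 libraries. Leaving out 1 library gave log2 differences of -0.255 to 0.27 for Krt18, -0.326 to 0.161 for Krt8, -0.526 to 0.58 for Foxa2 and -0.75 to 0.082 for Sox17. Krt18 was at -0.058 with the same total and -0.369 in the controls only, and Krt8 at 0.053 and Foxa2 at -1.078 in the knockdowns only. In the controls only, Sox17 was at 1.05, Fgf5 at 0.186 and Nanog at 0.224. The cause was not tested.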
